A study of Mus musculus with 21 samples.

Results

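The nuclear genes for oxidative phosphorylation were followed in cultured mouse CD4 T cells. Members were the rows of the TPM table (transcript abundances scaled to one fixed total in every library) whose symbols name subunits of the 5 mitochondrial complexes: NDUFA, NDUFB, NDUFC, NDUFS and NDUFV, SDHA to SDHD, UQCR and CYC1, COX4 to COX8, and ATP5. A row had to reach 1 TPM in at least 3 libraries. Of 93 rows with such symbols, 87 were members, out of 23415 rows in all and 9592 rows that passed the same filter on low values. They comprised 36 subunits of complex I, 7 complex I assembly factors whose symbols also begin with NDUFA, 4 of complex II, 9 of complex III, 14 of complex IV, 15 of ATP synthase, and ATP5S and ATP5SL, which carry the name but are no subunits of the enzyme.

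Oxidative phosphorylation turns the electrons of NADH and succinate into a proton gradient and then into ATP. Complex I (NADH dehydrogenase) and complex II (succinate dehydrogenase) feed electrons to ubiquinone, complex III passes them to cytochrome c, complex IV (cytochrome c oxidase) hands them to oxygen, and ATP synthase makes ATP from the gradient. T cells raise both glycolysis and respiration after activation, and effector types are known to differ in how they use them. The mitochondrially encoded subunits of the same complexes were not analysed here.

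All cells came from mice heterozygous for a reporter allele of Il23r, the gene of the IL-23 receptor. This allele places eGFP behind the gene and yields no working receptor, so every group, GFPneg cells included, had 1 reporter allele and 1 normal allele. Naive CD4 T cells (CD44 low, CD62L high, CD25 negative) from spleen and lymph nodes were activated on plates with antibodies to CD3 and CD28 for 5 days. The cultures held IL-12 (20 ng/ml), IL-12+IL-21 (20 ng/ml each), IL-1b+IL-6+IL-23 (20, 25 and 20 ng/ml), or TGFb+IL-6 (2 and 25 ng/ml). Cells were sorted by eGFP as GFPpos or GFPneg, with GFPneg cells alone from IL-12, which gave 7 groups of 3 SMART-Seq2 libraries (full-length cDNA amplified from small amounts of RNA). Nothing in the labels says whether the 3 came from separate animals or cultures, so p-values here reflect only how far these libraries lie apart, and that spread may be technical.

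Libraries entered when at least 7000 rows reached 1 TPM, and 16 of 21 did, with 7522 to 9248 such rows. The 5 left out had 190 to 5608: IL-12 GFPneg 1, IL-12+IL-21 GFPneg 3, TGFb+IL-6 GFPneg 3, and TGFb+IL-6 GFPpos 2 and 3. Of the members, 2, 51, 83, 1 and 52 were listed at 0 in these 5 libraries, in that order. This left 3 libraries each for IL-12+IL-21 GFPpos and both IL-1b+IL-6+IL-23 groups, 2 each for the other GFPneg groups, and 1 for TGFb+IL-6 GFPpos. TPM gives no number of reads, so the depth is unknown. The 8 markers of CD4 T cells summed to 1620 to 2830 TPM in the 16 libraries, while 4 B cell markers summed to at most 0.94 TPM and 5 myeloid markers to at most 2.52 TPM. The 2 CD8 markers summed to 4.99 to 17.5 TPM, most in TGFb+IL-6 GFPpos, and 5 erythroid and neutrophil markers, 3 of them at 0, to 3.23 to 9.24 TPM. The CD8 sum was nearly all CD8B1, as CD8A was at most 0.29 TPM. The 3 natural killer cell markers summed to at most 1.39 TPM. Cytosolic ribosomal protein transcripts took 34.8% to 46.4% of TPM in the 16 libraries.

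The promoters of 5 members that the comparisons below turn on are shown first, as the 250 bases before the start in RefSeq (GRCm38.p6), 5′ to 3′ on the gene's strand. NDUFA4 (chr6:11907451-11907700, minus strand), NDUFB11 (chrX:20617620-20617869, minus), NDUFA7 (chr17:33824322-33824571, plus) and ATP5H (chr11:115419920-115420169, minus) were called between cultures with TPM as deposited. NDUFA1 (chrX:37191239-37191488, minus) was called between sorted fractions in a contrast added after the results were seen. That call was lost on another scale of the values. Capitals mark letters of 3 motifs searched on both strands: that of NRF1, a known activator of respiratory genes, whose match is the first run of capitals in ATP5H, CCGGAAG of the ETS family, to which GABPA belongs, and ATGGCGG of YY1. The motifs do not overlap in these windows.
NDUFA4: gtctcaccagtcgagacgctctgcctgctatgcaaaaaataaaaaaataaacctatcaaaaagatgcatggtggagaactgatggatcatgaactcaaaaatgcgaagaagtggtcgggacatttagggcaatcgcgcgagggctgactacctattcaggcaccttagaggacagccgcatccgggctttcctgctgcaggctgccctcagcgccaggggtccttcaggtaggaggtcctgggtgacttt
NDUFB11: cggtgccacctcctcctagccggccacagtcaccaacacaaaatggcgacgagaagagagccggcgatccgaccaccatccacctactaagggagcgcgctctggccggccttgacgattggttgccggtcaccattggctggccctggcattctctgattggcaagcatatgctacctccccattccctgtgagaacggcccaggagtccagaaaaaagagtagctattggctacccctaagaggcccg
NDUFA7: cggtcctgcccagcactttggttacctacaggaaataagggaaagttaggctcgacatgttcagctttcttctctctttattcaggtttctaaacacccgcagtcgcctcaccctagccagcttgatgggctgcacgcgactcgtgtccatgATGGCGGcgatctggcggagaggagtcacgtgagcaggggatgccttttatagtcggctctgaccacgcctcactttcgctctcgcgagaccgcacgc
ATP5H: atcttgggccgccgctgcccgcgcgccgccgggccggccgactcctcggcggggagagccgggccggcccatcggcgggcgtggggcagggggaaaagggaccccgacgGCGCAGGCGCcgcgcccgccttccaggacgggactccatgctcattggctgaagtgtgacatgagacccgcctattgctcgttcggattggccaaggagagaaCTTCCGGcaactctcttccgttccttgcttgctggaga
NDUFA1: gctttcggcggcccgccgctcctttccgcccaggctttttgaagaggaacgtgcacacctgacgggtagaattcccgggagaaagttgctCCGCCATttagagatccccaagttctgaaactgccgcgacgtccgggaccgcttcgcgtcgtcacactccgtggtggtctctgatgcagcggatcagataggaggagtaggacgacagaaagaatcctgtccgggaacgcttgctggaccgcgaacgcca

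A promoter sequence was found for 74 of the 87 members, at the first start listed for each. The NRF1 letters stood in 13 of the 74 windows (17.6%), against 693 of 7291 tested rows with a window (9.5%) and 3.86% of all 27025 genes in the table. ATP5H, NDUFA5, ATP5G2, NDUFS5, SDHA and SDHD were among the 13. The ETS letters were in 16.2% of members' windows and in 16.2% of those of tested rows, and the YY1 letters in 5.41% and 4.21%. NDUFA4 and NDUFB11, which had the smallest p-values over the groups, held none of the 3 in this window. A match describes letters in the sequence and is not evidence of binding.

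The members were abundant transcripts, and their levels per length spread widely within each complex. The median member stood at 251 TPM over the 16 libraries, where the median tested row stood at 5.29 TPM, and 47 members were among the 500 highest rows. ATP5B, the catalytic beta subunit of ATP synthase, was the highest at a median of 2112 TPM, and ATP5G3, 1 of 3 genes for the same c subunit of its ring, was the lowest true subunit of that enzyme at 209.6 TPM. The other c-subunit genes, ATP5G1 and ATP5G2, stood at 249 and 292 TPM, and ATP5A1, the alpha subunit, at 667 TPM. ATP5E, the small epsilon subunit, stood at 708 TPM. In complex IV, COX8A (1882 TPM) and COX4I1 (1568 TPM), the common forms of 2 nuclear subunits, led. COX6B1 followed at 1196 TPM, COX6A1 at 1166 TPM, COX6C at 995 TPM, COX5B at 745 TPM and COX5A at 608 TPM. COX7A2, the common form of subunit 7A, stood at 411 TPM and COX7A2L, a relative that takes part in joining complexes, at 338 TPM.

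Complex III ranged from UQCRH, the hinge protein, at 1045 TPM to UQCRQ at 128 TPM. In complex I the accessory subunits NDUFA7 (606 TPM) and NDUFA3 (581 TPM) were the highest, and NDUFS1, the large iron-sulfur subunit that carries electrons, was the lowest at 19.5 TPM. NDUFV1, the subunit that takes electrons from NADH, was also low at 58.5 TPM, and NDUFB8 stood at 272 TPM. In complex II the iron-sulfur subunit SDHB stood at 188 TPM, the flavoprotein SDHA at 125 TPM, and the membrane anchor SDHC at 33.5 TPM. The assembly factors of complex I ranged from 3.2 TPM (NDUFAF4) to 37.6 TPM (NDUFAF7), the latter above the subunits NDUFS1, NDUFA11 (30.0 TPM) and NDUFS4 (33.0 TPM). The order is one of medians: neighbours such as UQCRQ and UQCRC2 (130.1 TPM), or NDUFA7 and NDUFA3, overlapped in their ranges over libraries.

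**Figure D1:**
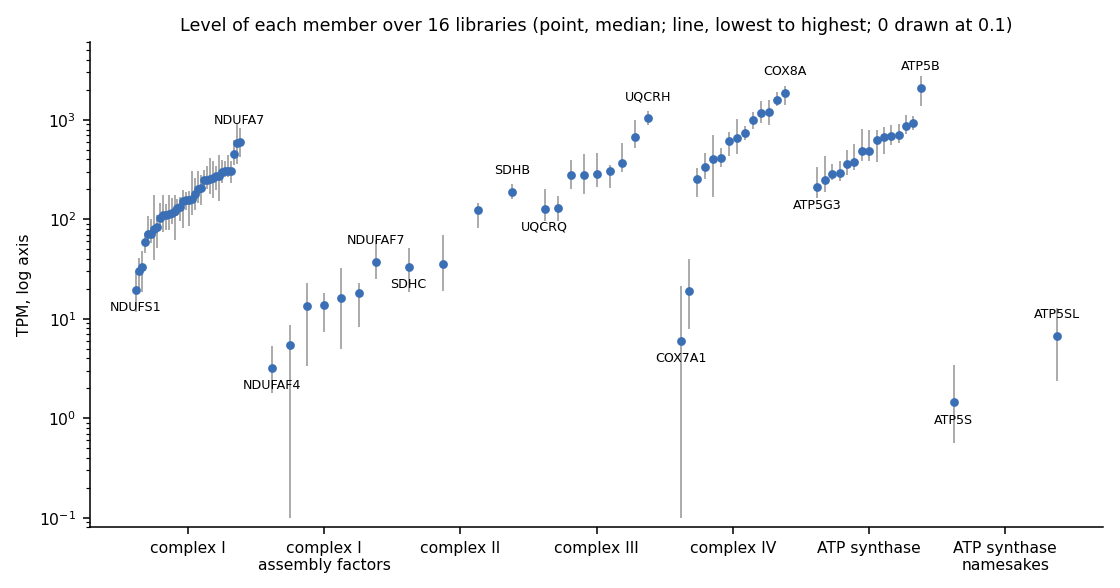
TPM of each of the 87 members over the 16 libraries on a log axis, by complex, with points for medians and lines from the lowest to the highest library (0 drawn at 0.1). Most subunits lie above 100 TPM, while COX7A1, COX6B2, the assembly factors and the namesakes ATP5S and ATP5SL lie far lower.

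Isoforms known from particular tissues were low or listed at 0. COX7B2, COX8B, COX8C and NDUFA4L2 were listed at 0 in all 16 libraries. COX4I2, the form linked to lung and low oxygen, and COX6A2, a muscle form, reached 1 TPM in 1 library each, with highest values of 1.00 and 3.61 TPM, and so stood just outside the threshold of 3 libraries. Just inside were ATP5S with 13 libraries and COX7A1, the heart and muscle form of subunit 7A, with 14 (median 6.0, highest 21.3 TPM). COX6B2, the testis form of subunit 6B, was above 1 TPM in all 16 libraries, at 7.98 to 39.9 TPM with a median of 18.9 TPM. Of the members, 84 reached 1 TPM in all 16 libraries.

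By summed TPM, the members made up a larger share of RNA after IL-12 alone than in any other culture. They took 3.40% and 3.72% of TPM in the 2 IL-12 libraries and 2.80% to 3.31% in the other 14. Summed ATP synthase transcripts were 10800 and 11620 TPM in IL-12 against 8653 to 10040 TPM elsewhere, and complex III sums were 4269 and 4721 against 3005 to 3720 TPM. The IL-12 libraries therefore lay above all others for these sums, but not for complex II (455 and 484 TPM against 307 to 464 TPM), complex I (7513 and 8058 TPM against 5973 to 8211 TPM) or complex IV (10850 and 12130 against 9069 to 11250 TPM). The IL-12 libraries also had the smallest ribosomal protein shares, 34.9% and 34.8%, and of the TPM outside ribosomal protein rows the members took 5.22% and 5.70% there and 4.49% to 5.86% in the others, which overlapped. In bulk samples, fewer cells of a type and less RNA per cell cannot be told apart.

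**Figure D2:**
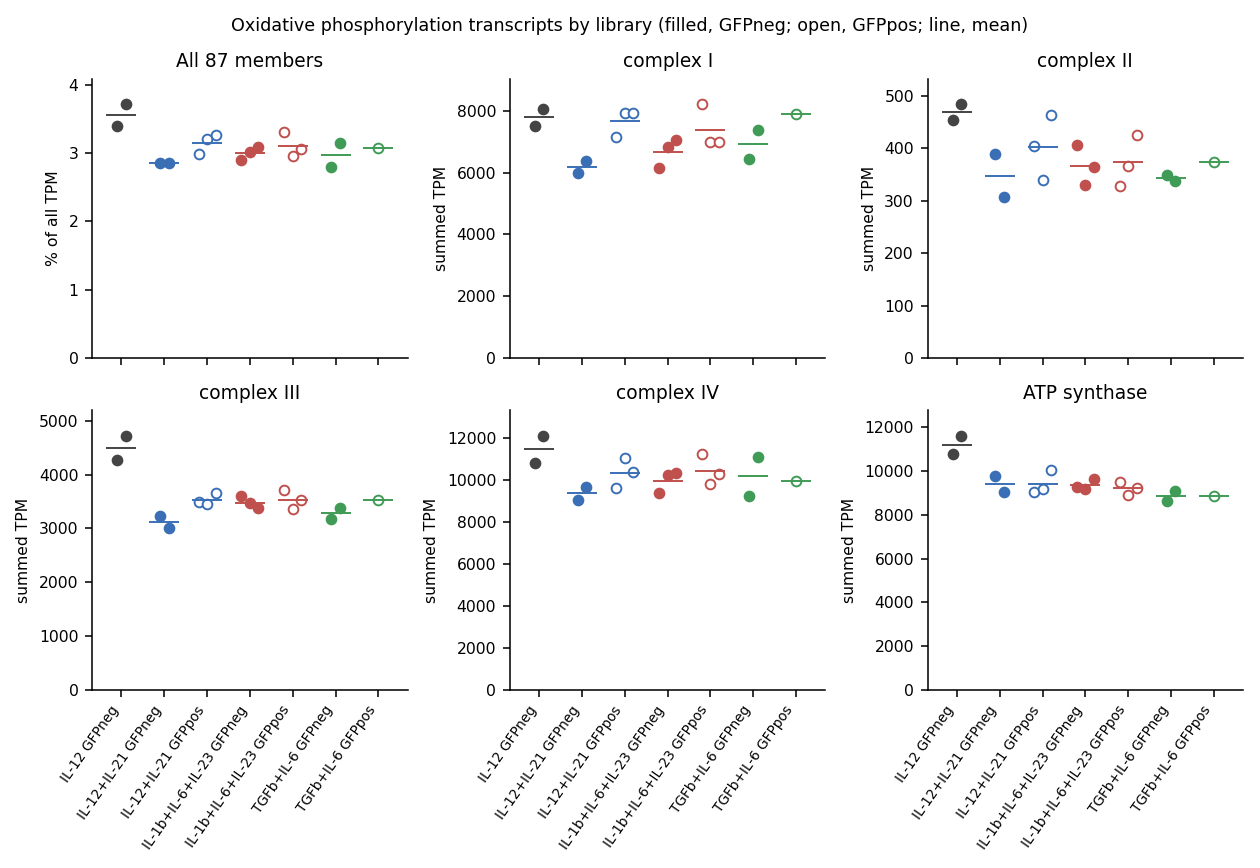
Share of TPM taken by the 87 members and the summed TPM of each complex, 1 point per library in 7 groups (filled GFPneg, open GFPpos, line for the group mean). The 2 IL-12 libraries, at 3.40% and 3.72%, lie above all others in the share and in the sums of complex III and ATP synthase.

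Over the 7 groups, 19 of 87 members differed by the moderated F test of limma (adjusted p under 0.05 over 9592 rows), where 24.9% of all tested rows were called. NDUFA4 had the smallest adjusted p (9.98e-05), followed by NDUFB11 (0.00199), NDUFA7 (0.00559), NDUFA5 (0.00716), NDUFV3 (0.00872) and UQCR10 (0.0096). ATP5F1, ATP5C1, CYC1, UQCRFS1, NDUFA1 and UQCRB came next, at 0.0126 to 0.019. Replicates of members were close: the median residual SD was 0.204 on the log2(TPM + 1) scale, and 0.204 also for 434 rows of like level, against 0.329 over all tested rows. Without IL-12 GFPneg 3 the F test called 12 members.

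Several of these members were highest after IL-12 alone. NDUFA5, an accessory subunit of complex I, was at 262 and 309 TPM in the IL-12 libraries and at 109 to 184 TPM in the other 14. CYC1, which holds the haem of cytochrome c1, was at 455 and 462 TPM in IL-12 and at 209.6 to 366 TPM elsewhere. ATP5C1, the central stalk subunit gamma, was at 729 and 805 TPM against 384 to 590 TPM, and ATP5F1, subunit b of the outer stalk, at 689.7 and 787 TPM against 384 to 551 TPM. For all 4 the IL-12 libraries lay above every other library. Of 87 members, 14 did so and 1 lay below every other library, where 4.93% and 2.58% of all tested rows did; this count was added after the values were seen and has no test.

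NDUFA4 and NDUFB11, the members with the smallest F p-values, were both set apart in the TGFb+IL-6 culture, in opposite directions. NDUFA4, first assigned to complex I and now counted with complex IV, is on chromosome 6 (11900292 to 11907497, minus strand, GRCm38, GENCODE M21). Its TPM were 658 and 704 in IL-12, 336 and 356 in IL-12+IL-21 GFPneg, 387, 301 and 471 in IL-12+IL-21 GFPpos, 395, 459 and 590 for IL-1b+IL-6+IL-23 GFPneg, 535, 409.6 and 467 for the GFPpos cells of that culture, 215 and 198 in TGFb+IL-6 GFPneg, and 167 in TGFb+IL-6 GFPpos. The IL-12 libraries were the highest of the 16 and the 3 TGFb+IL-6 libraries the lowest, with no overlap with the rest. NDUFB11, an accessory subunit of the membrane arm of complex I, is on the X chromosome (20615326 to 20617619, minus strand). Its TPM were 85.2 and 69.6 in IL-12, 56.8 and 79.5 in IL-12+IL-21 GFPneg, 77.7, 92.7 and 95.2 in IL-12+IL-21 GFPpos, 39.3, 57.0 and 58.5 for IL-1b+IL-6+IL-23 GFPneg, 82.9, 79.0 and 72.3 for the GFPpos cells of that culture, 128 and 175 in TGFb+IL-6 GFPneg, and 120.4 in TGFb+IL-6 GFPpos. Here the 3 TGFb+IL-6 libraries were the highest of the 16.

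**Figure D3:**
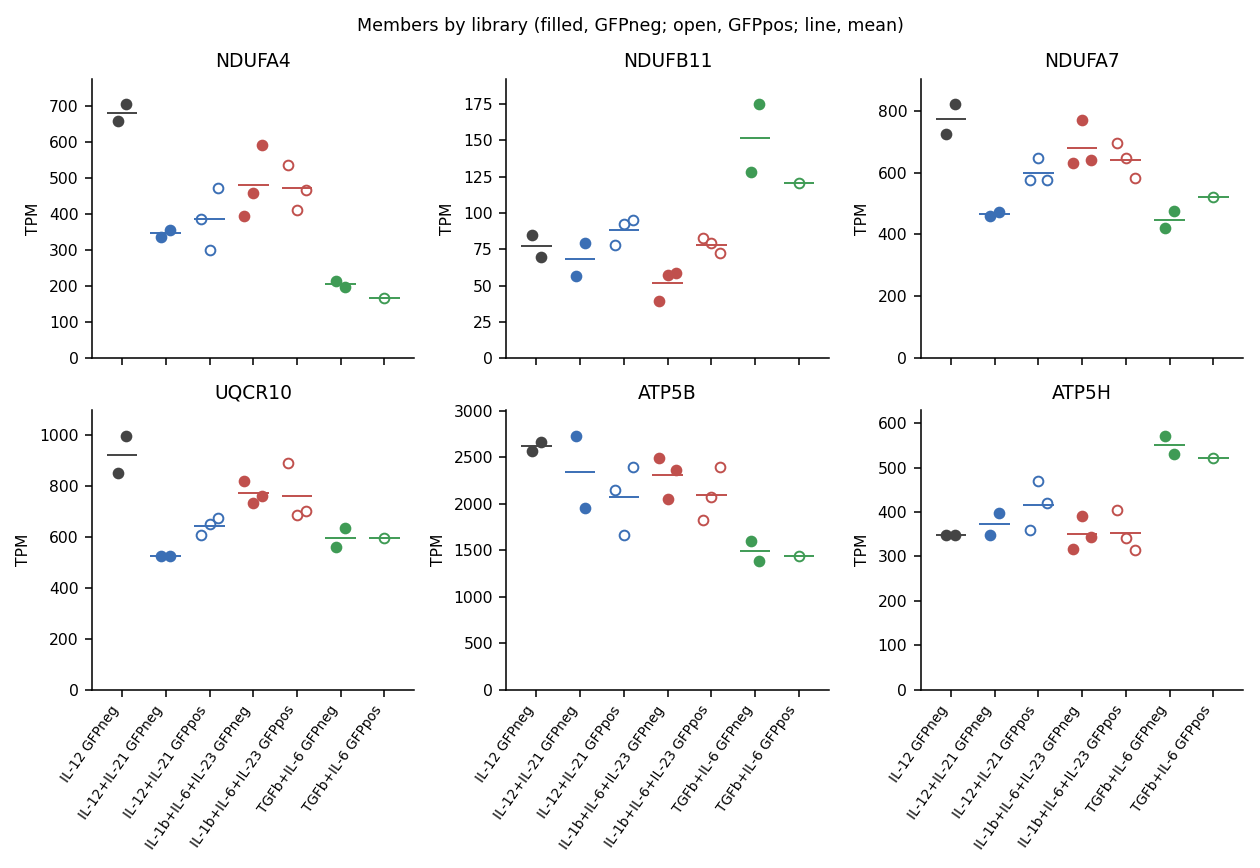
TPM of 6 members in each of the 16 libraries by group (filled GFPneg, open GFPpos, line for the group mean). NDUFA4 and ATP5B are lowest and NDUFB11 and ATP5H highest in the 3 TGFb+IL-6 libraries, and UQCR10 and NDUFA7 are low in IL-12+IL-21 GFPneg relative to IL-12.

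The comparison of the 2 cultures with IL-6 in GFPneg cells, TGFb+IL-6 (2 libraries) against IL-1b+IL-6+IL-23 (3 libraries), held most of the calls. Of 87 members, 11 differed (limma on log2(TPM + 1), Benjamini-Hochberg adjusted over 9592 rows), 6 higher and 5 lower in TGFb+IL-6, where 15.4% of all tested rows were called, 4.83% higher and 10.6% lower. The members' share of calls, 12.6%, was thus near that of all rows. NDUFB11 rose by 1.54 ± 0.22 (log2, SE) from 51.6 ± 10.7 to 151 ± 33 TPM (SD, n = 3 and 2; adjusted p = 0.000141). NDUFA4 was lower, at 207 ± 11.9 TPM against 481 ± 99.5 TPM, a log2 difference of -1.196 ± 0.195 (adjusted p = 0.000547). Libraries of both groups did not overlap for 21 higher and 22 lower members, against 12.6% and 31.2% of all rows. The median difference of all tested rows was itself -0.23, and that of the members 0.02.

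With TPM as deposited, ATP synthase subunits went both ways within the enzyme. The alpha and beta subunits of its catalytic head were lower in TGFb+IL-6, with differences of -0.66 ± 0.19 for ATP5A1 (adjusted p = 0.03) and -0.63 ± 0.17 for ATP5B (adjusted p = 0.0237). ATP5B was at 2499, 2056 and 2366 TPM in IL-1b+IL-6+IL-23 GFPneg and at 1599 and 1389 TPM in TGFb+IL-6 GFPneg. By contrast ATP5H, subunit d of the stalk that holds the head still, rose by 0.66 ± 0.16 (adjusted p = 0.00967), from 317, 391 and 343 to 571 and 530.0 TPM. ATP5G2, a c-subunit gene, rose by 0.47 ± 0.14 (adjusted p = 0.0276), while the paralogs ATP5G1 and ATP5G3 had differences of 0.05 and 0.25 that did not pass. ATP5E, at 0.10, did not pass either. For the 4 called subunits the libraries of both groups did not overlap. Under median-ratio scaling, described below, ATP5H and ATP5G2 kept their calls and ATP5A1 and ATP5B did not. Over 5 fits that left out 1 library, ATP5H kept its call in 3, ATP5A1 in 2, and ATP5B and ATP5G2 in 1 each. TPM are proportions of a library, and protein was not measured.

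In complex III the Rieske iron-sulfur protein UQCRFS1 rose by 0.76 ± 0.22 (adjusted p = 0.0296), from 189 to 239 TPM up to 339 and 387 TPM. UQCRB, a small subunit next to the quinone site, rose by 0.55 ± 0.15 (adjusted p = 0.0187). The cytochrome c1 gene CYC1 and the core protein UQCRC1 had differences of -0.43 and -0.34, which did not pass. In complex I, NDUFA3 rose by 0.65 ± 0.19 (adjusted p = 0.0299) and NDUFA7 had a difference of -0.60 ± 0.14 (adjusted p = 0.00779), with 629.6, 769.8 and 642 TPM against 422 and 474 TPM. SDHC, a membrane anchor of complex II, had a difference of -0.79 ± 0.25 (adjusted p = 0.0467), from 34.2 ± 5.3 to 19.3 ± 0.8 TPM. SDHA (-0.46) and SDHB (0.30) did not pass with TPM as deposited. On both other scales given below SDHB was called higher (0.60 and 0.48) and SDHC was not called.

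Median-ratio scaling (libraries brought to a common median ratio) moved the median of all rows in this comparison from -0.233 to -0.0081 and the calls from 463 higher and 1015 lower to 838 higher and 725 lower; members then numbered 8 higher and 1 lower. NDUFB11 (1.85) and NDUFA4 (-0.891) kept their calls under it and in each of 5 fits that left out 1 library, in which 2 to 11 members were called. With 18 libraries (IL-12 GFPneg 1 and TGFb+IL-6 GFPpos 2 added back) or all 21, 0 members were called in this comparison, and with all 21 the NDUFB11 difference turned to -0.871. Counts of 2, 3 and 4 arose without TGFb+IL-6 GFPneg 1, TGFb+IL-6 GFPneg 2 and IL-1b+IL-6+IL-23 GFPneg 1. ATP5H, UQCRB, UQCRFS1, ATP5G2 and NDUFA3 were also called under median-ratio scaling, and NDUFA7, ATP5A1, ATP5B and SDHC were not. NDUFS7 (0.61) and SDHB (0.60) were newly called higher under it. Over the 5 fits without 1 library, NDUFA7 kept its call in 4, UQCRB in 2, and UQCRFS1, NDUFA3 and SDHC in 1 each. Ribosomal protein rows took 46.1% and 46.4% of TPM in TGFb+IL-6 GFPneg and 35.5%, 41.3% and 39.6% for IL-1b+IL-6+IL-23 GFPneg. With TPM rescaled without these rows, 9 members were higher and 2 lower, with a median of 0.204. Of all rows 647 were then higher and 798 lower, with a median of -0.0994. NDUFA7, ATP5A1 and SDHC were no longer called, and SDHB (0.48), NDUFS7 (0.49) and COX7A2L (0.50) were newly called higher. NDUFB11 shares 117 of its 908 exonic bases with Rbm10 on the other strand, and RBM10 itself had a difference of 0.22 ± 0.31 (adjusted p = 0.685). ATP5A1 shares 129 exonic bases with Haus1, ATP5G2 75 with Mir688, UQCRB 50 with Gm10767 and NDUFA3 4 with Tfpt. The use of strand is not given in the sources used here, so reads of overlapping genes may not be separable.

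Around the members, other mitochondrial genes were called in the same comparison with TPM as deposited. Their lists were not counted under median-ratio scaling. The median of 38 tested assembly factors of the complexes was -0.22, beside -0.23 for all rows. Of these factors, 7 were lower in TGFb+IL-6 and 0 higher, where 10.6% of all rows were lower. They included SCO1 (-1.12 ± 0.20, adjusted p = 0.000991) and SCO2 (-1.19 ± 0.28, adjusted p = 0.00859), which deliver copper to complex IV, TMEM126B (-1.73 ± 0.39, adjusted p = 0.00654), a complex I assembly factor, and TMEM70 (-1.01 ± 0.23, adjusted p = 0.00691), which helps build ATP synthase. Of 17 electron carriers, exchangers and regulators, 3 were lower and 1 higher; ETFB, which passes electrons from fatty acid oxidation, had a difference of -1.05 ± 0.14 (adjusted p = 6.22e-05). Among genes of the tricarboxylic acid cycle, IDH2 (0.82) was higher, and MDH2 (-0.66), DLST (-0.80) and PDHB (-0.58) were lower. Of 17 glycolysis genes 3 were lower, HK2 (-0.97), PKM (-0.63) and PGAM1 (-0.53). MYC, a driver of growth and of mitochondrial genes, was the 1 of 12 tested regulators called (-1.10 ± 0.19, adjusted p = 0.000849).

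With IL-21 added to IL-12, 3 members were called lower in GFPneg cells (2 libraries against 2), and most others lay below 0 without passing the test. The median difference of members was -0.31 on the log2(TPM + 1) scale and that of all rows -0.09. Below 0 lay 74 of 87 members and 5585 of 9592 rows. By the adjusted p, 3 members were lower and 0 higher, where 0.448% of all rows were lower and 0.313% higher. UQCR10, a small subunit of complex III, had a difference of -0.81 ± 0.15 (adjusted p = 0.0225), from 849.9 and 998 TPM to 526 and 526 TPM. NDUFA7 had a difference of -0.73 ± 0.15 (adjusted p = 0.0317), from 725 and 821 to 458 and 472 TPM. NDUFA4 had a difference of -0.97 ± 0.21 (adjusted p = 0.0474). Both libraries were below both of IL-12 for 53 of 87 members, while 27.8% of all rows did so.

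By complex, the medians were -0.66 for complex II, -0.52 for complex III, -0.32 for complex IV and for the complex I assembly factors, -0.26 for complex I and -0.23 for ATP synthase. Named members that did not pass included CYC1 (-0.71), UQCRFS1 (-0.71), UQCRC1 (-0.52), UQCRH (-0.37), ATP5G1 (-0.78), SDHA (-0.44) and COX6A1 (-0.39). COX4I1 (-0.11), NDUFV1 (-0.08) and COX5A (-0.10) were near 0. The median was -0.50 for 77 mitochondrial ribosomal proteins and for 18 genes of the tricarboxylic acid cycle, with 0 called in either list, and 0.05 for 17 glycolysis genes. Among assembly factors SCO2 (-1.49 ± 0.31, adjusted p = 0.0317) and COX17, a copper chaperone of complex IV (-0.93 ± 0.20, adjusted p = 0.0437), were lower.

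These 3 calls were lost on other scales. With median-ratio scaling 0 members were called and the members' median was -0.169 beside 0.0145 for all rows; with TPM rescaled without ribosomal protein rows, 0 were called and the medians were -0.186 and 0.00453. The ribosomal share was 34.9% and 34.8% in IL-12 and 37.4% and 42.8% in IL-12+IL-21 GFPneg, and leaving out 1 of the 4 libraries left 0 or 1 call, 0 without either IL-12+IL-21 library or without IL-12 GFPneg 3.

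Few members were called between the IL-1b+IL-6+IL-23 and IL-12+IL-21 cultures in GFPneg cells. In IL-1b+IL-6+IL-23 (3 libraries) against IL-12+IL-21 (2 libraries), 2 members were higher and 0 lower, where 1.25% and 2.16% of all rows were called. They were NDUFA7 (0.54 ± 0.14) and UQCR10 (0.55 ± 0.14), each with an adjusted p of 0.0397. UQCR10 was at 821, 735 and 760.0 TPM in IL-1b+IL-6+IL-23 and at 526 TPM in both IL-12+IL-21 libraries. Both comparisons that call these genes use the same 2 IL-12+IL-21 GFPneg libraries, and the 3 IL-1b+IL-6+IL-23 GFPneg libraries are also those set against TGFb+IL-6. Under median-ratio scaling 0 members were called, and 0 or 1 when 1 library was left out: 1 without IL-1b+IL-6+IL-23 GFPneg 1, and 0 without each of the other 4. Over the same contrast HIGD2A, a complex IV factor, was higher by 0.73 ± 0.17 (adjusted p = 0.0238).

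In GFPpos cells, the same contrast (3 libraries against 3) called 0 members by limma, where 4.96% of all rows were called. An unadjusted p under 0.05 was found for 4 of 87 members and for 1510 of 9592 rows, a larger share of all rows. Leaving out IL-12+IL-21 GFPpos 3 gave 1 called member. UQCRB came nearest, at -0.42 (adjusted p = 0.0869). The tricarboxylic acid cycle enzyme SUCLG1 (-0.61 ± 0.14, adjusted p = 0.0164) and HK2 of glycolysis (-0.78 ± 0.21, adjusted p = 0.0357) were lower with IL-1b+IL-6+IL-23. The cultures themselves were far apart here: IFNG differed by -8.18 and IL17F by 10.47 on the same scale. The members' medians were -0.05 and, for all rows, -0.155.

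**Figure D4:**
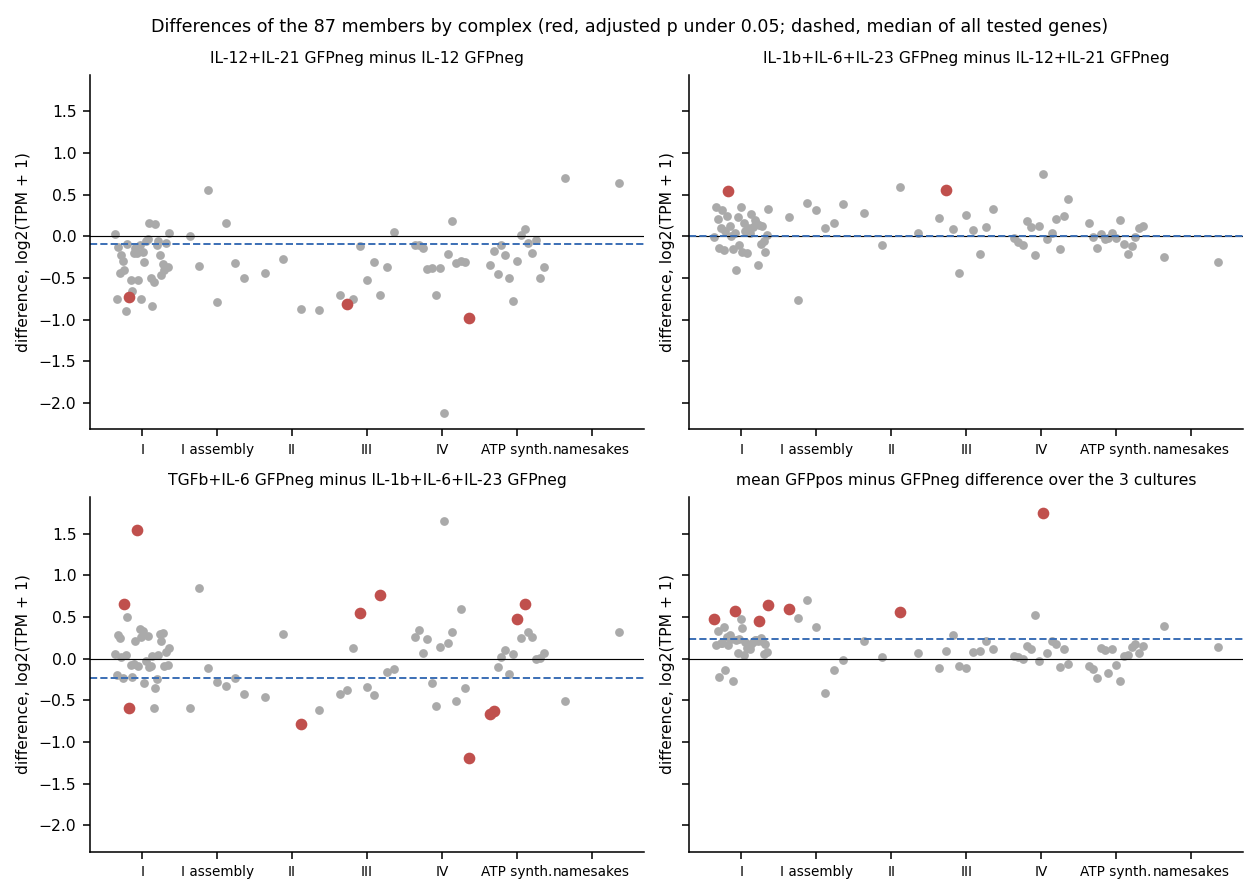
Difference on the log2(TPM + 1) scale of each of the 87 members by complex in 4 comparisons, with members of adjusted p under 0.05 in red and the median of all tested rows dashed. Calls lie on both sides of 0 for TGFb+IL-6 against IL-1b+IL-6+IL-23 (6 higher, 5 lower), below 0 for IL-21 added to IL-12 (3 lower), and above 0 for the mean GFP difference (7 higher), where the dashed line itself is at 0.23.

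No member passed the test between reporter-positive and reporter-negative cells of 1 culture. By limma, 0 of 87 members were called within the IL-12+IL-21 culture, 0 within IL-1b+IL-6+IL-23 and 0 within TGFb+IL-6, where 0.156%, 0.427% and 0.323% of all rows were. At an unadjusted p under 0.05 there were 17 members and 1392 of 9592 rows in IL-12+IL-21. With IL-1b+IL-6+IL-23 there were 8 members and 809 rows. The medians of members were 0.22, 0.09 and 0.12, beside 0.24, 0.07 and 0.37 for all rows. Under median-ratio scaling the members' medians turned to -0.068 in IL-12+IL-21 and -0.361 in TGFb+IL-6. In IL-12+IL-21, 71 of 87 members lay above 0 with TPM as deposited and 30 under this scaling, beside 74.7% and 51.5% of all rows. In TGFb+IL-6 these were 55 and 10 members, beside 77.4% and 50.8% of all rows. With IL-12+IL-21, all GFPpos libraries lay above all GFPneg libraries for 37 members and below for 2, beside 26.3% and 3.93% of all rows. These counts were 8 and 0 (9.81% and 4.7% of all rows) in the culture of IL-1b+IL-6+IL-23. They were 44 and 19 (63.7% and 14% of all rows) with TGFb+IL-6, where GFPpos is 1 library. The sort itself was visible in IL23R, though in TGFb+IL-6 this gene was low. There it was at 3.57 TPM in the 1 GFPpos library and at 0.87 and 0.73 TPM in GFPneg cells. By limma IL23R was higher in GFPpos cells by 2.52 ± 0.37 in IL-12+IL-21 (adjusted p = 0.0139) and by 1.85 ± 0.33 with IL-1b+IL-6+IL-23 (adjusted p = 0.0201). The difference of the GFP effect between these 2 cultures called 0 members and 0 of 9592 rows, a share of 0%; 1 member (NDUFA7) and 474 rows had an unadjusted p under 0.05.

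A contrast added after these results were seen, the mean of the 3 GFP differences, called 7 members higher in GFPpos cells and 0 lower, where 6.76% of all rows were higher and 0.636% lower. Of these, 4 were complex I subunits. NDUFA1, a small membrane-arm subunit encoded on the X chromosome (37187588 to 37191163, minus strand), was higher by 0.48 ± 0.10 (adjusted p = 0.00978). Its TPM were 383, 440.5 and 419.6 in GFPpos and 279 and 296 in GFPneg cells of IL-12+IL-21, 441, 315 and 393 against 265, 283 and 309 for IL-1b+IL-6+IL-23, and 417 against 299 and 294 in TGFb+IL-6. All 7 GFPpos libraries lay above all 7 GFPneg libraries of these cultures, as for 0.813% of all rows (0 members and 0.073% of rows lay the other way), and the IL-12 GFPneg libraries, at 277 and 286 TPM, lay with the other GFPneg cells. NDUFV3, a small subunit of the NADH-oxidising module, was higher by 0.65 ± 0.13 (adjusted p = 0.0104), with 349, 352 and 314 against 152 and 249 TPM in IL-12+IL-21, 393, 283 and 321 against 229.5, 245 and 264 for IL-1b+IL-6+IL-23, and 448 against 226 and 320.1 in TGFb+IL-6. Its fractions did not overlap within a culture, but did between cultures.

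NDUFB10 (0.57 ± 0.13, adjusted p = 0.0183) and NDUFS5 (0.45 ± 0.13, adjusted p = 0.0461), both accessory subunits of the membrane arm, were the other complex I subunits. NDUFAF1, an assembly factor of that arm, was higher by 0.59 ± 0.17 (adjusted p = 0.0437) and SDHC by 0.56 ± 0.16 (adjusted p = 0.0442). COX7A1, the muscle-type isoform, had the largest difference of the 7, 1.75 ± 0.40 (adjusted p = 0.0201), at low levels: 5.12, 8.77 and 7.42 TPM against 0 and 1.58 in IL-12+IL-21, 3.06, 6.91 and 14.2 against 0, 2.36 and 4.87 for IL-1b+IL-6+IL-23, and 21.3 against 8.10 and 6.91 TPM in TGFb+IL-6. The IL-12 GFPneg libraries held 8.38 and 4.22 TPM, within the range of GFPpos cells. A TPM of exactly 0 may be a failed estimate.

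**Figure D5:**
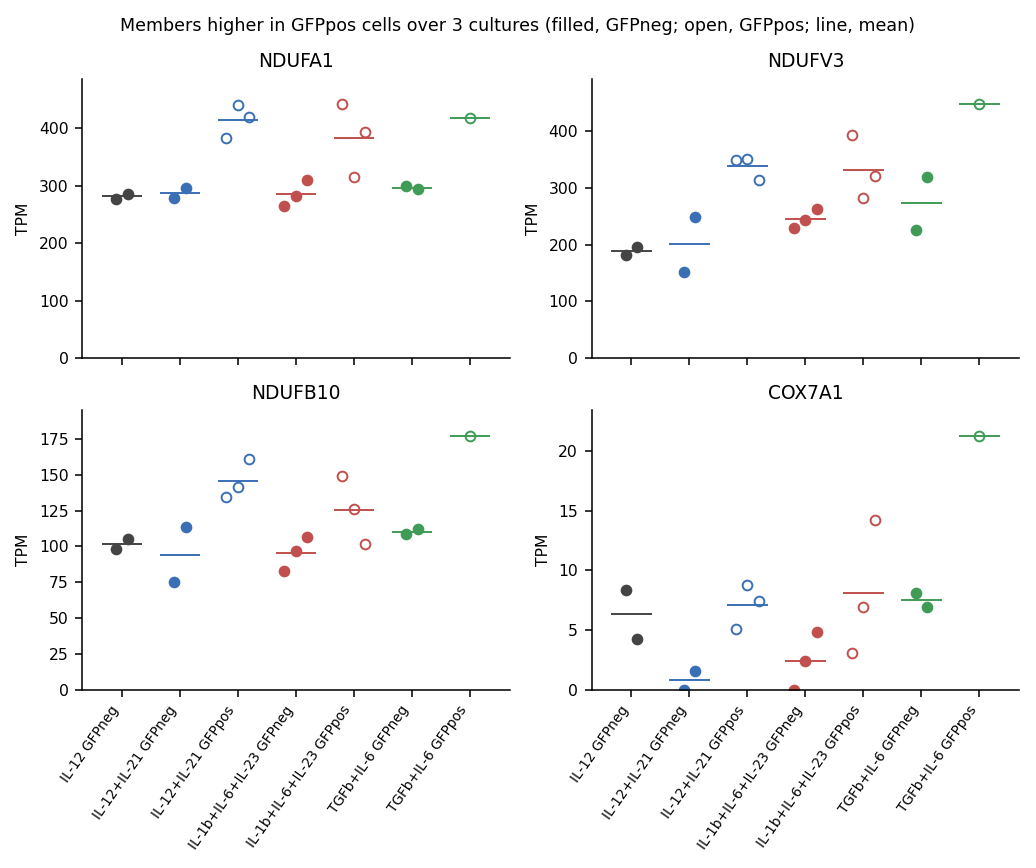
TPM of NDUFA1, NDUFV3, NDUFB10 and COX7A1 in each of the 16 libraries by group (filled GFPneg, open GFPpos, line for the group mean). For NDUFA1 the 7 GFPpos libraries lie between 315 and 441 TPM and the GFPneg libraries between 265 and 309 TPM.

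The mean GFP difference depended on the scaling. The median of all rows was 0.231 with TPM as deposited, above the members' median of 0.136, and 648 rows were called higher and 61 lower. Under median-ratio scaling these became 122 and 220 rows, the members' median turned to -0.136, and 0 members were higher while NDUFAF5, ATP5C1, ATP5B and ATP5F1 were lower (-0.68, -0.51, -0.40 and -0.45). NDUFA1 then had a difference of 0.199 (adjusted p = 0.43) and NDUFV3 one of 0.371 (adjusted p = 0.281). Without ribosomal protein rows, 6 members were higher and 2 lower, beside 629 higher and 100 lower of all rows. In 13 fits without 1 library the count was 3 to 8: it was 3 without TGFb+IL-6 GFPneg 2 and 4 without TGFb+IL-6 GFPneg 1, IL-12+IL-21 GFPneg 1, IL-1b+IL-6+IL-23 GFPpos 2 or IL-12+IL-21 GFPpos 3. TGFb+IL-6 GFPpos 1, the only library of its group, could not be left out of this contrast, so its weight in these calls was not tested.

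Other lists were counted in this added contrast with TPM as deposited, where 6.76% of all rows were higher and 0.636% lower. They were not counted under median-ratio scaling. Of 38 assembly factors 10 were higher and 0 lower by limma. The 10 included SDHAF4 (1.22 ± 0.21, adjusted p = 0.00396) of complex II and TMEM126B (1.07 ± 0.25, adjusted p = 0.0196) of complex I. COA3 (0.50 ± 0.10, adjusted p = 0.00907) of complex IV and UQCC2 (0.46 ± 0.10, adjusted p = 0.0187) of complex III were also among them. Of 77 mitochondrial ribosomal proteins 8 were higher and 0 lower, of 18 genes of the tricarboxylic acid cycle 0 were called, and of 17 glycolysis genes HK2 was higher (0.67 ± 0.15, adjusted p = 0.0153). HIGD2A was higher by 0.50 ± 0.11 (adjusted p = 0.0153). GFPpos libraries of the 3 cultures held 8362 to 9248 rows at 1 TPM or more, and the GFPneg libraries 7522 to 8353; the part of this gap in the differences was not tested.

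Outside the members, the row whose log2(TPM + 1) profile over the 16 libraries was most like the mean of each complex was sought as a description. It was GPX1, a glutathione peroxidase, for complex III (Pearson r = 0.966), ACADVL, an enzyme of mitochondrial fatty acid oxidation, for complex II (r = 0.935), COX17 for ATP synthase (r = 0.883), ZFP560 for complex I (r = 0.871), and PAM16, part of the mitochondrial import motor, for complex IV (r = 0.847). It was GTF2IRD2 for the complex I assembly factors (r = 0.833) and HMBOX1 for the namesakes (r = 0.824). The 16 points share groups, and each is the best of all tested rows, so r describes these libraries.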

How the data were processed

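Bulk RNA sequencing of sorted, cultured CD4 T cells gave 1 table of TPM values, deposited by the authors, with 23415 gene symbols in 21 columns, all tied to samples by name. GRCm38, RSEM 1.2.31, Bowtie2 2.2.9 and Trimmomatic 0.32 are named, without roles, per the submitters' processing notes; annotation, strand and filters are not given in the sources used here. TPM are shares of a fixed total, so reads per value are unknown, no counting interval was given, and a rise of some transcripts lowers others.

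Columns with at least 7000 rows at 1 TPM were kept (16), and rows with at least 1 TPM in 3 of them were tested. limma 3.58.1 (R 4.3.3) was fitted on log2(TPM + 1) with 7 group means, no block and a trend, with Benjamini-Hochberg adjustment over 9592 rows and a threshold of 0.05. This scale understates changes of low rows. The group with 1 library is assumed to vary like the others.

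The members and lists were chosen with earlier results of these data known. Named were all called members, the 12 of smallest F p-value, the highest and lowest of each complex, a fixed set of well-known subunits, the likest row per complex, and up to 4 genes of other lists; further called genes of short lists, RBM10, and rows named for their part in a list were chosen after their values were seen. Members were placed with GENCODE M21 (86 by symbol, 1 by synonym), and promoters came from RefSeq (GRCm38.p6). Alternatives were other pseudocounts, filters, scalings, library sets, a replicate block, no trend, and each library left out. One gene of the neighbouring lists is not reported here.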

Additional observations from a re-analysis of the deposited data

How the results depend on the processing

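Beside the values in the report, 218 counts and medians under whole-set alternatives were compared. Of these, 174 stayed near the value given (counts within 1.5 times, medians within 0.116, the SD of library medians) and 44 did not, and the cause was not tested. Medians are of the members' log2 differences. Without a filter on low values, 1 member was called for IL-1b+IL-6+IL-23 against IL-12+IL-21 in GFPneg cells, 6 for TGFb+IL-6 against IL-1b+IL-6+IL-23 and 3 for the mean GFP difference. Median-ratio scaling gave medians of -0.068 for GFP in IL-12+IL-21, -0.361 for GFP in TGFb+IL-6, -0.169 for IL-21 added to IL-12, 0.164 for the GFPpos cultures, 0.324 for TGFb+IL-6, 0.114 for the difference of GFP effects and -0.136 for the mean GFP difference, with 1 call (NDUFAF5) for GFP in TGFb+IL-6, 0 for IL-21 added, 0 for IL-1b+IL-6+IL-23 GFPneg and 4 for the mean GFP difference. Without ribosomal protein rows, 0 were called for IL-21 added and 0 for IL-1b+IL-6+IL-23 GFPneg, and the medians were -0.186 for IL-21 added and 0.204 for TGFb+IL-6.

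With all 21 libraries the medians were 1.75 for GFP in IL-12+IL-21, 0.271 for GFP in TGFb+IL-6, -0.807 for IL-21 added, 1.41 for IL-1b+IL-6+IL-23 GFPneg, -2.46 for TGFb+IL-6, -1.41 for the difference of GFP effects and 0.784 for the mean GFP difference, and 0 members were called in each culture comparison named here, in the mean GFP difference and over the 7 groups. In TGFb+IL-6, differences then reversed for ATP5G2 (-2.39), ATP5H (-2.38), NDUFA3 (-2.5), NDUFA7 (0.894), NDUFB11 (-0.871), UQCRB (-2.25) and UQCRFS1 (-2.08). With 18 libraries, a set chosen after seeing the data, medians were -0.0926 for GFP in TGFb+IL-6 and -0.0906 for IL-21 added, 0 members were called in the same comparisons and 1 over the 7 groups. With only the groups compared, counts were 1 for GFP in IL-12+IL-21, 1 for IL-21 added and 0 for IL-1b+IL-6+IL-23 GFPneg. Without the trend they were 0 for IL-21 added, 0 for IL-1b+IL-6+IL-23 GFPneg, 3 for TGFb+IL-6 and 5 over the 7 groups.

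Leaving out 1 library gave medians of 0.147 to 0.25 for GFP in IL-12+IL-21, 0.0259 to 0.14 for GFP with IL-1b+IL-6+IL-23, 0.0625 to 0.161 for GFP in TGFb+IL-6, -0.352 to -0.278 for IL-21 added, 0.00602 to 0.103 and -0.107 to -0.0176 for IL-1b+IL-6+IL-23 in GFPneg and GFPpos cells, -0.0966 to 0.113 for TGFb+IL-6, -0.175 to -0.0698 for the difference of GFP effects and 0.115 to 0.164 for the mean GFP difference. Counts were 12 to 22 over the 7 groups, 2 to 11 for TGFb+IL-6, 3 to 8 for the mean GFP difference, 0 to 1 for the other 3 culture comparisons and 0 for GFP in each culture. TGFb+IL-6 GFPpos 1, the only library of its group, could not be left out for GFP in TGFb+IL-6 or for the mean GFP difference. Pairing was checked on each library's deviations from its group mean over all tested rows, between libraries of different groups. These deviations correlated at -0.0861 to 0.265 for the same number (31 pairs, median 0.0425, 8 over 0.1). For unlike numbers r was -0.218 to 0.111 (62 pairs, median -0.0274, 1 over 0.1). In groups of 2 kept libraries the deviations mirror each other, which builds in part of this gap. The values hint at shared numbers in part of the data. Between IL-1b+IL-6+IL-23 GFPneg and IL-12+IL-21 GFPpos, not set against each other here, the 3 pairs were at 0.251, 0.157 and 0.265. Both pairs were over 0.1 for GFP in IL-12+IL-21 (0.156 and 0.116) and for IL-1b+IL-6+IL-23 against IL-12+IL-21 in GFPneg cells (0.202 and 0.125). For GFP with IL-1b+IL-6+IL-23 the 3 pairs were at -0.0861, 0.0455 and 0.071, none over 0.1. For IL-1b+IL-6+IL-23 against IL-12+IL-21 in GFPpos cells they were at -0.0412, -0.00712 and 0.0732. Comparisons with a group of fewer than 3 kept libraries could not show 3 pairs. Whether the numbers pair samples was thus not settled, and the main fit did not pair them. The replicate block gave 12 calls for TGFb+IL-6 and 7 for the mean GFP difference. TPM carry no read depth, so what depth limits could not be measured.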
